A study of Mus musculus with 43 samples.

Results

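The phospholipase C family was examined in a pooled in vivo CRISPR knockout screen of metabolic genes in mouse CD8+ T cells. Members were all genes of the screen whose symbol starts with Plc followed by 1 of the letters b, d, e, g, h, l or z and a digit. This gave 14 of the 2078 genes of the library and 70 of its 10640 sgRNAs, 5 for each member. The members were 4 beta isoforms (Plcb1, Plcb2, Plcb3 and Plcb4), 3 delta isoforms (Plcd1, Plcd3 and Plcd4), 2 gamma isoforms (Plcg1 and Plcg2), 2 eta isoforms (Plch1 and Plch2), Plce1, Plcz1 and the phospholipase C-like gene Plcl1. All 14 were measured in every library, and no filter on low values was applied.

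Phospholipase C enzymes cleave the membrane lipid phosphatidylinositol 4,5-bisphosphate (PIP2) into diacylglycerol, which stays in the membrane, and inositol trisphosphate, which releases calcium from the endoplasmic reticulum. In T cells, Plcg1 is the isoform that is recruited to the adaptor LAT and activated after T cell receptor engagement. Plcg2 plays the corresponding part downstream of the B cell receptor and of Fc receptors, the beta isoforms respond to G protein-coupled receptors, and the other subfamilies are coupled to calcium, Ras-type GTPases or fertilization.

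The cells were CD90.1+ OT-I T cells, whose transgenic T cell receptor recognizes ovalbumin, taken from Cas9 knock-in mice and transduced with the lentiviral library. Every group, T0 included, therefore carried Cas9, the OT-I receptor and the library. The cells were transferred into Rosa26-Cas9 recipients with orthotopic KPC_OVA tumours, a mouse pancreatic cancer line that expresses ovalbumin, and the mice received anti-PD-1 or control IgG from the same day. The reference, T0, was the transduced population on the day of transfer (3 libraries). After 7 days, the cells were sorted from primary tumour, lung, liver, peritoneal metastases, spleen and draining and nondraining lymph nodes, which gave 14 organ and treatment groups. Of the 43 samples, 41 had values. There was 1 library of liver anti-PD-1, there were 2 each of liver IgG and of peritoneal metastases IgG, and all other groups had 3. One library titled as replicate 2 of peritoneal metastases with anti-PD-1 has spleen as its tissue label and was grouped by its title. The labels call the libraries biological replicates but do not say how many mice stand behind each, so p-values measure the spread between libraries. The sgRNA spacers were not used here, so no guide sequence is given.

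The deposited value of an sgRNA in a library is a signal. The paper describes it as normalized to the nontargeting sgRNAs and corrected for batch effects between organs. The summed signal per library was 2882462 to 4228882 in T0 and 1788300 to 3590597 in the organs outside the lymph nodes. Within a replicate number, an sgRNA's lowest value was often shared by several libraries, also of different organs. None of the 70 family sgRNAs lay at this lowest value in a T0 library. In the 26 organ libraries outside the lymph nodes, a median of 1.43% of them did, with the highest shares in lung IgG replicate 1 (47.1%), lung IgG replicate 2 (21.4%) and spleen anti-PD-1 replicate 2 (21.4%). In the 12 lymph node libraries the share was 40% to 94.3%, so these were kept apart from the other organs. A gene value is the mean log2(signal + 1) of its 5 sgRNAs, from which the mean of the 250 nontargeting sgRNAs in the same library was subtracted. A value of 0 is thus the level of the nontargeting sgRNAs, and a change is a difference between such values on the log2(signal + 1) scale, on which changes of sgRNAs with low signal come out too small. Genes were called at a limma adjusted p (Benjamini-Hochberg over all 2078 genes) of at most 0.05.

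Guides against the family were neither lost nor enriched as a group in the organs. Over the 10 groups outside the lymph nodes, each weighted equally and set against T0, limma called 0 of the 14 members lower and 0 higher. Of all genes, 16.1% were called lower and 0.192% higher in this contrast. At an unadjusted p under 0.05, 1 member was lower, Plcg1, and 0 were higher, against 18.2% of all genes that were lower at that level. The median change of the 14 members was −0.031, and that of all 2078 genes was −0.14. Without Plcg1, the other 13 members lay between −0.52 (Plcl1) and 0.45 (Plcg2), with a median of −0.0034. For scale, the change was −5.94 for Rpl9, a ribosomal protein gene, and 2.98 for Pik3cd, a phosphoinositide 3-kinase catalytic subunit. Both were called, and all 26 libraries lay outside the range of T0, below it for Rpl9 and above it for Pik3cd. The share of all genes with all 26 outside it was not determined.

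Plcg1 had the lowest change of the family, −1.13 (SE 0.52, 95% CI −2.18 to −0.076). Its unadjusted p was 0.0364 and its limma adjusted p was 0.201, so it was not called. It ranked 361 from the lowest of 2078 genes. Plcg1 lay below T0 in all 10 groups, as did 20.6% of all genes. In T0, its value was 0.0043, −0.15 and 0.39 in replicates 1, 2 and 3. Of the 26 organ libraries, 22 lay below every T0 library and 2 lay above every one. At least as many libraries lay below T0 for 19.2% of all genes.

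In the primary tumour, Plcg1 values under IgG were −1.16, −1.19 and −0.98. Under anti-PD-1 they were −0.11, −1.07 and −2.22. All 3 IgG libraries lay below T0, whereas the first anti-PD-1 library lay within its range. The share of all genes with all 3 of these IgG libraries below T0 was not determined. The changes of Plcg1 against T0 were −1.19 (SE 0.69) under IgG and −1.21 (SE 0.69) under anti-PD-1. In lung, the values were −1.72, 0.60 and −1.64 under IgG. They were −0.97, −1.09 and −1.84 under anti-PD-1. Lung IgG replicate 2 was above every T0 library, and the other 5 lung libraries were below. In liver, the values were −0.997 and −2.44 under IgG and −0.97 in the 1 anti-PD-1 library. The change in liver IgG, −1.80 (SE 0.77), was the lowest that Plcg1 had in the 10 groups, with an unadjusted p of 0.0256 and a limma adjusted p of 0.169. The change in liver anti-PD-1 was −1.05 (SE 0.98), with the spread taken from the other groups.

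Peritoneal metastases had Plcg1 values of −0.22 and −0.56 under IgG. Under anti-PD-1, their values were −1.01, −1.55 and −1.89. All 5 libraries lay below T0, and the share of all genes for which they did was not determined. The change of Plcg1 was −0.47 (SE 0.77) under IgG, the one nearest to 0, and −1.57 (SE 0.69, unadjusted p = 0.0298, limma adjusted p = 0.171) under anti-PD-1. In spleen, the values were −1.70, 0.31 and −0.64 under IgG, and −1.09, 0.92 and −2.16 under anti-PD-1. Both spleen libraries of replicate 2 were not below T0, and the other 4 were. The spleen changes were −0.76 (SE 0.69) and −0.86 (SE 0.69). The limma adjusted p of Plcg1 was between 0.169 and 0.999 in the 10 groups, so no group was called. Other settings called single groups. With only the groups compared, Plcg1 was called in primary tumour IgG (limma adjusted p = 0.00164), liver IgG (0.0372), peritoneal metastases anti-PD-1 (0.0127) and the 1 library of liver anti-PD-1 (0.00735). Without the 4 libraries with over 20% of all sgRNAs at their lowest value, it was called in liver IgG (limma adjusted p = 0.0416) and peritoneal metastases anti-PD-1 (0.0464). With the nontargeting median as the centre, it was called in lung IgG (−2.19, limma adjusted p = 0.0145) and lung anti-PD-1 (−2.20, limma adjusted p = 0.0172), and with the values as deposited in these, in liver IgG and in peritoneal metastases anti-PD-1. In the main setting, 9.58% to 17.2% of all genes were called lower in a group. The shares under the other settings were not determined.

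The 5 sgRNAs of Plcg1 all had a mean below T0 over the organs, as had those of 19.3% of all genes, but they differed in size. The lowest was s_02747, with a change of −2.96 (SE 1.39, unadjusted p = 0.0432, limma adjusted p = 0.358 over all sgRNAs). Its signal in T0 was 258, 147 and 150. In the 26 organ libraries its signal was 0 at the lowest, 14.5 at the median and 100 at the highest. All 26 of these signals were below every T0 signal, and 23 were after centring on the nontargeting sgRNAs. Signals before centring also depend on the library sum, which reached lower in the organs. For s_07922 of Plcz1, with a change of −0.11, 23 of 26 signals were below every T0 signal. The share over all sgRNAs was not determined. In 6 organ libraries s_02747 was at its lowest value, and none of the 250 nontargeting sgRNAs had a change as low. The sgRNA s_02746 had a signal of 415, 346 and 297 in T0 and a median of 98.8 in the organs, with a range of 0.560 to 1126, and its change of −1.18 (SE 1.37) did not pass the test. The sgRNAs s_02749 and s_02750 had changes of −0.75 (SE 1.06) and −0.51 (SE 1.04). For s_02748, whose signal was 455, 365 and 361 in T0 and 30.6 to 923 in the organs with a median of 181, the change was −0.24 (SE 0.79). Of the nontargeting sgRNAs, 16 of 250 were lower than s_02746 and 82 were lower than s_02748.

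The size of the Plcg1 change rested on s_02747 more than on any other sgRNA. Without it, the mean of the other 4 sgRNAs changed by −0.67 (limma adjusted p = 0.911). Leaving out any other Plcg1 sgRNA gave −1.12 to −1.35. The call depended on the scaling of the libraries. With the median of the nontargeting sgRNAs in place of their mean as the centre, the change was −1.54 and was called (limma adjusted p = 0.0368), and the median of all genes was −0.55. With the values as deposited, it was −2.13 (limma adjusted p = 0.00531), and the median of all genes was −1.14. Of all 2078 genes, 368 were called lower with the nontargeting median and 671 with the values as deposited, against 334 in the main setting. Without the 4 libraries with over 20% of all sgRNAs at their lowest value (lung IgG replicates 1 and 2, lung anti-PD-1 replicate 2 and spleen anti-PD-1 replicate 2), the Plcg1 change was −1.30 and was called (limma adjusted p = 0.0255). The share of all genes called without them was not determined. By replicate number, the mean of the organ libraries minus the T0 library of the same number was −1.11 in number 1 (7 libraries), −0.33 in number 2 (9 libraries) and −1.92 in number 3 (10 libraries).

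Plcg2, the other gamma isoform, had the highest change of the family, 0.45 (SE 0.52, 95% CI −0.61 to 1.51, limma adjusted p = 1.0). In T0, its value was 0.011, 0.31 and −0.055. Of the 26 organ libraries, 15 were above every T0 library and 8 were below every one. At least as many libraries lay above T0 for 18.1% of all genes. The highest group change was 2.21 in liver under anti-PD-1, where its 1 library had a value of 2.30 (unadjusted p = 0.0312, limma adjusted p = 0.229). In the other groups, the changes ran from −0.33 in peritoneal metastases IgG to 0.61 in liver IgG. Over the organs, the change was 1.42 (SE 0.80) for s_09067, 0.74 (SE 0.92) for s_09069 and 0.70 (SE 1.56) for s_09068. It was −0.16 (SE 1.30) for s_09066 and −0.46 (SE 1.43) for s_09070. The sgRNA s_09067 had a signal of 369, 588 and 271 in T0 and a median of 514 in the organs, with a range of 86.4 to 3523. None of the 5 passed the test, and 247 of the 250 nontargeting sgRNAs were lower than s_09067.

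Both gamma isoforms were compared within each library, which removes the centring. Plcg1 minus Plcg2 was −0.0077 ± 0.452 (SD, n = 3) in T0, with a range of −0.46 to 0.44. In the 26 organ libraries it was −1.48 ± 1.47 (SD), with a median of −1.47 and a range of −3.93 to 1.88. The organ libraries thus overlapped with T0, with 22 below every T0 library and 3 above. The share of all gene pairs with such counts was not determined. The difference between organs and T0 was −1.47, with p = 0.103 in a two-sided exact permutation test over all 3654 ways to choose which 3 of the 29 libraries are T0. The group means were all below T0, by −0.14 in peritoneal metastases IgG at the least and by −3.26 in the 1 library of liver anti-PD-1 at the most. The difference was −1.65 within replicate number 1, −0.034 within number 2 and −2.69 within number 3. Without the Plcg1 sgRNA s_02747 it was −1.0 (exact permutation p = 0.270). Without the 4 libraries with many lowest values it was −1.78 (exact permutation p = 0.0230). Without the libraries of number 2, which were left out after the values by number were seen, it was −2.22.

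Against the mean of the other 13 isoforms, Plcg1 lay between −0.30 and 0.22 in T0, with a median of −0.19. In the organ libraries this gap had a median of −1.25 and a range of −2.93 to 1.33. It was below every T0 library in 22 of 26 and above every one in 2. Relative to T0, Plcg1 was the lowest of the 14 members in 12 of the 26 organ libraries and among the 3 lowest in 19. Isoform by isoform, the gap was below every T0 library in 18 libraries (against Plcd1, Plcl1 and Plcz1) to 24 libraries (against Plch2). Shares of all genes or gene pairs with such counts were not determined. Values outside T0 were common, as Plcb3, with a change of 0.057, had 12 organ libraries below every T0 library and 14 above. The mean gap of Plcg1 moved by −0.62 against Plcl1 at the least and by −1.47 against Plcg2 at the most. By groups, Plcg1 had the lowest change of the family in 6 of 10, namely primary tumour, lung anti-PD-1, both liver groups and peritoneal metastases anti-PD-1.

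The beta isoforms, which are activated by G protein subunits, had mean changes near 0 over the organs but varied between groups. Group changes of Plcb3 ran from −1.55 to 1.39 and those of Plcb2 from −1.33 to 0.69. Over the organs, the changes of the beta isoforms were −0.059 (SE 0.47) for Plcb1, −0.17 (SE 0.53) for Plcb2, 0.057 (SE 0.60) for Plcb3 and 0.28 (SE 0.43) for Plcb4. None was called, and each limma adjusted p was 1.0. The directions of Plcb3 and Plcb4 turned to −0.35 and −0.13 with the nontargeting median as the centre. Among single groups, Plcb4 was highest in liver IgG, where its values were 1.88 and 1.24 against 0.49, 0.26 and −0.096 in T0. This change of 1.34 had an unadjusted p of 0.0442 and a limma adjusted p of 0.257. Plcb3 varied most in spleen anti-PD-1, with values of 0.69, −4.29 and −0.87 in replicates 1 to 3 and T0 values of 0.092, 0.070 and 0.019. The lowest of these came from replicate 2, the spleen library with 21.4% of family sgRNAs at their lowest value.

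The delta isoforms are the calcium-sensitive members of the family. Their changes over the organs were −0.47 (SE 0.53) for Plcd1, −0.0034 (SE 0.43) for Plcd3 and 0.34 (SE 0.44) for Plcd4, none of them called. Plcd4 values in lung anti-PD-1 were 0.999, 1.40 and 1.69, all above the T0 values of 0.13, −0.035 and 0.10. This group change of 1.30 had a limma adjusted p of 0.142. The share of all genes with every lung anti-PD-1 library above every T0 library was not determined. In lung IgG, 24.7% of all genes had every library below every T0 library. Plcd3 was the member with the lowest p in the F-test between organs. It had a mean change of 0.99 in lung and of −0.47 in liver, with an unadjusted p of 0.0148 and a limma adjusted p of 0.443.

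The remaining isoforms were also not called over the organs. The change was −0.29 (SE 0.46) for Plce1, which responds to Ras-family GTPases, and −0.14 (SE 0.57) for Plcz1, the sperm isoform that starts calcium oscillations in the egg. The eta isoforms, known mainly from neurons, had changes of 0.020 (SE 0.49) for Plch1 and 0.27 (SE 0.48) for Plch2. The direction of Plch2 turned to −0.14 and that of Plch1 to −0.39 with the nontargeting median as the centre. Across the 10 groups, changes ran from −1.03 to 0.33 for Plce1, from −0.91 to 0.26 for Plcz1, from −0.86 to 0.49 for Plch1 and from −0.34 to 0.71 for Plch2.

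Of the 140 pairs of a member and a group outside the lymph nodes, 1 was called lower and 0 were called higher. Over all genes, 14.1% of such pairs were called lower and 0.419% higher. A total of 6 member pairs had an unadjusted p under 0.05, of which 3 were lower. The pair called was Plcl1 in lung IgG. Plcl1 encodes a phospholipase C-like protein that lacks catalytic activity and binds inositol phosphates. Its values in lung IgG were −3.28, −2.59 and −0.34, against 0.022, −0.013 and 0.23 in T0. All 3 lung libraries were below T0, the third by far less than the other two. For 24.7% of all genes, all 3 lung IgG libraries lay below every T0 library. The change was −2.15 (SE 0.66, unadjusted p = 0.00245, limma adjusted p = 0.0169), and 16.2% of all genes were called lower in this group.

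Among the lung IgG libraries, the 2 with the lowest Plcl1 values had the most sgRNAs at their lowest value. In replicate 1, 33 of the 70 family sgRNAs lay there, and in replicate 2, 15 did. Lung anti-PD-1 replicate 2 had 30.2% of all sgRNAs there, against 28.0% in lung IgG replicate 2. Of the 70 family sgRNAs it had 11 there, against 15. Its Plcl1 value lay above T0, and none of its Plcl1 sgRNAs was at the lowest value. In lung IgG replicate 2, the Plcl1 sgRNAs s_08657, s_08659 and s_08660 were. Signals of s_08657 were 0.654, 0.644 and 78.3 in lung IgG against 171, 234 and 218 in T0. Those of s_08659 were 1.21, 0.585 and 517 against 442, 374 and 307. By contrast, s_08658 was at 1.8, 486 and 95.1 against 358, 213 and 147, so its second library lay above T0. The call was lost without either library. The change was −1.55 (limma adjusted p = 0.143) without replicate 1 and −1.89 (limma adjusted p = 0.0757) without replicate 2. Without the 4 libraries with many lowest values, which leaves replicate 3 alone in this group, it was −0.42 (limma adjusted p = 0.797). It was also lost without T0 replicate 3 (limma adjusted p = 0.0640), without the libraries of replicate number 2 (0.121), without the 10% of sgRNAs with the lowest mean (0.0679), with all 41 libraries in the fit (0.0958) and with only the groups compared (0.102). The part of the lowest values in this result was not tested. Over the organs, Plcl1 changed by −0.52 (SE 0.49, limma adjusted p = 0.936).

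Anti-PD-1 was compared with IgG as the mean difference over the 5 organs outside the lymph nodes. limma called 0 of the 14 members, and 1.35% of all genes. At an unadjusted p under 0.05 there were 2 members, Plcl1 with 0.76 (95% CI 0.080 to 1.44, limma adjusted p = 0.258) and Plcb4 with −0.59 (95% CI −1.19 to −0.00062, limma adjusted p = 0.314). For Plcg1, the difference was −0.17 (95% CI −0.88 to 0.54), with mean changes of −1.21 under anti-PD-1 and −1.04 under IgG. For Plcg2, it was 0.61 (95% CI −0.11 to 1.33). Within single organs, 1 member was called in 1 organ. In lung, Plcl1 values were 0.45, 1.57 and −0.18 under anti-PD-1, above all 3 IgG values. The difference was 2.69 (SE 0.66, limma adjusted p = 0.0233), and 3.56% of all genes were called in lung. It was 2.08 (limma adjusted p = 0.0967) without lung IgG replicate 1, 2.21 (limma adjusted p = 0.0760) without lung anti-PD-1 replicate 2 and 0.48 (limma adjusted p = 0.796) without the 4 libraries with many lowest values. It was 1.70 with log2(signal + 10) (limma adjusted p = 0.0516) and 1.95 without the libraries of replicate number 2 (limma adjusted p = 0.157), and with all 41 libraries in the fit the limma adjusted p was 0.272. In spleen, the difference was −2.19 for Plcb3 and −1.45 for Plcb4, with unadjusted p-values of 0.00992 and 0.0160, and neither was called (limma adjusted p = 0.449 and 0.480). The lowest Plcb3 value in spleen came from anti-PD-1 replicate 2, in which 24.1% of all sgRNAs were at their lowest value. A test of whether the treatment difference varied between organs called 0 members (lowest limma adjusted p = 0.984).

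Between the 5 organs, a moderated F-test called 0 of the 14 members, and 0.433% of all genes. With p under 0.05 there was 1 member, Plcd3. Plcg1 had mean changes of −1.20 in primary tumour, −1.19 in lung, −1.43 in liver, −1.02 in peritoneal metastases and −0.81 in spleen. These differed by less than the spread between libraries (moderated F-test in limma, adjusted p = 0.999). The paper describes a correction of batch effects between organs, which can take out differences of this kind before the test. The lowest values, however, were shared across organs within a replicate number. For s_02747, the shared value was 0.890 in replicate 1 of both lung IgG and spleen IgG. In replicate 2 of lung IgG it was 0.135. What the correction took out is therefore not known.

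Taking the 70 sgRNAs singly, 37 had a change below 0 over the organs and 33 had one above. limma called 0 lower and 0 higher, with 1 at an unadjusted p under 0.05. Of all 10640 sgRNAs, 7.52% were called lower and 0.0752% higher. The 5th and 95th percentiles of the nontargeting sgRNAs were −1.29 and 1.0. Below the former lay 5 family sgRNAs, and above the latter lay 6. The lowest after the Plcg1 sgRNA s_02747 were s_07921 of Plcz1 (−1.81), s_09495 of Plch1 (−1.50), s_02738 of Plcd1 (−1.48) and s_02730 of Plcb3 (−1.40). For each of these 4 genes other sgRNAs had changes above 0. Plcg1 was the only member with all 5 sgRNAs below 0, and none had all 5 above.

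In the lymph nodes, fitted with all 41 libraries, limma called 0 of 56 pairs of a member and a group, with 5 at an unadjusted p under 0.05. Of all gene pairs there, 0.974% were called lower and 0.517% higher. The lowest limma adjusted p was 0.0547, for Plce1 with anti-PD-1 in the draining nodes, with values of 4.91, 2.08 and 2.35. Plcg1 values in nondraining lymph nodes under IgG were −1.54, −1.51 and −2.38, and the change was −1.89 (SE 0.82, limma adjusted p = 0.261). In all 3 of these libraries, all 5 Plcg1 sgRNAs were at their lowest value. The gene values there are thus those lowest values after centring. In the other lymph node groups the change of Plcg1 was −0.16 in draining nodes under IgG, −1.03 in draining nodes under anti-PD-1 and −0.68 in nondraining nodes under anti-PD-1. Of the 12 lymph node libraries, 11 had s_02747 at its lowest value, and in the remaining one, draining IgG replicate 3, its signal was 685. With the values as deposited all 56 pairs were called, and with the median of the nontargeting sgRNAs as the centre 12 were, so that calls in lymph nodes depended on the centring.

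Genes on either side of the phospholipase C reaction were taken from 3 lists, whose counts stand against 16.1% of all genes called lower and 0.192% called higher in the same contrast. Of 14 genes that supply PIP2, 4 were lower than T0 over the organs and 0 were higher. These were Cdipt, the phosphatidylinositol synthase (−5.38, SE 0.44), the phosphatidylinositol 4-kinases Pi4kb (−4.0, SE 0.45) and Pi4ka (−2.34, SE 0.52), and Cds2, which makes the CDP-diacylglycerol used by Cdipt (−3.81, SE 0.59). The median of this list was −0.17. In all 26 organ libraries, each of the 4 lay below every T0 library. The share of all genes that did so was not determined, but 19.2% did in at least 22 organ libraries. The PIP2-forming kinases Pip5k1a, Pip5k1b and Pip5k1c had changes of 0.55, 0.25 and 0.42, which did not pass the test. Of 10 diacylglycerol kinases, which remove the diacylglycerol product, 0 were lower and 1 was higher, Dgkz (1.90, SE 0.41, limma adjusted p = 0.000395). Dgkz was above every T0 library in all 26 organ libraries, and it ranked 3 from the highest of 2078 genes. Of all genes, 18.1% were above every T0 library in at least 15 organ libraries. The median of the list was −0.20, and Dgka, the other diacylglycerol kinase known to act in T cell receptor signalling, had a change of 0.56 (SE 0.47, limma adjusted p = 0.876). Of 18 measured enzymes that act on inositol phosphates, 2 were lower and 0 were higher, with a list median of −0.23, a share of lower genes not above that of all genes. These were the inositol trisphosphate kinase Itpkb (−3.14, SE 0.60) and Ippk, the kinase that makes inositol hexakisphosphate (−2.36, SE 0.52). Among these called genes, Pi4ka and Ippk were not called with the median of the sgRNAs in place of the mean. Pi4ka, Pi4kb, Cds2 and Ippk were not called without the 10% of sgRNAs with the lowest mean signal, and Dgkz was not called with the values as deposited.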

How the data were processed

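The authors used MAGeCK-VISPR 0.5.3 to count sgRNA reads and scaled them to the 250 nontargeting sgRNAs. The paper describes a ComBat correction of batch effects between organs, whose settings are not given in the sources used here. The deposited values are a signal per sgRNA and library that is no longer a whole count, which leaves the read depth unknown and allows no test made for counts. No genome build is named for this screen, and coordinates and spacers were not used here. The authors excluded 2 samples after quality control.

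From the signal, the mean log2(signal + 1) of each gene was taken from its 5 sgRNAs and centred per library on the mean of the nontargeting sgRNAs. limma 3.58.1 in R 4.3.3 fitted 1 mean per group over the 29 libraries without lymph nodes (18 residual and 15.5 prior degrees of freedom) and over all 41 libraries for the lymph nodes, with Benjamini-Hochberg adjustment over 2078 genes or 10640 sgRNAs. Scripts were tested on simulated data. All 14 members are reported, with all sgRNAs of Plcg1 and Plcg2, the called genes of 3 pathway lists, and Rpl9, Pik3cd and Dgkz for scale. Other genes and sgRNAs were named after their values were seen. Members, lists and tests were chosen with earlier results of these data known. Alternatives were another pseudocount, the median of sgRNAs, 3 other centrings, a filter on the lowest 10% of sgRNAs, all 41 libraries or only the groups compared, the replicate number as a block, and each library left out. Leaving out sgRNAs of Plcg1, the 4 libraries with over 20% of lowest values and the libraries of replicate number 2 was added after seeing the data.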

Additional observations from a re-analysis of the deposited data

How the results depend on the processing

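The counts of members called higher over the organs, of family sgRNAs called in either direction and of members that differed between anti-PD-1 and IgG over organs were 0 under every alternative run. Members called lower over the organs numbered 3 with the values as deposited (Plcg1, Plcd1 and Plcl1) and 1 with the nontargeting median or without the 4 libraries with many lowest values, and 0 when any single library was left out. Of all 2078 genes, 671 were called lower with the values as deposited and 368 with the nontargeting median. The number without the 4 libraries was not determined. The change of Plcg1 was −2.13, −1.54 and −1.30 under these 3 settings, and −1.24 to −0.98 when single libraries were left out. Pairs called lower numbered 18 with the values as deposited, 6 with the nontargeting median, 2 with the median of all sgRNAs, 6 with only the groups compared, 4 without the 4 libraries, and 0 with the filter on the lowest 10%, all 41 libraries or no replicate number 2. They were 0 to 2 when single libraries were left out, with 0 without lung IgG replicate 1, lung IgG replicate 2 or T0 replicate 3 and 2 without either of the lung anti-PD-1 libraries 1 and 2 or without spleen anti-PD-1 replicate 1. Pairs called higher numbered 1 with the median of the sgRNAs and 4 with only the groups compared. The F-test between organs called 1 member with the median of the sgRNAs and 1 with the values as deposited. Lymph node pairs called numbered 56, 12 and 16 with the values as deposited, the nontargeting median and the median of all sgRNAs, and 0 to 2 when single libraries were left out (2 without nondraining IgG replicate 1, and 1 without any of 7 other lymph node libraries or lung anti-PD-1 replicate 1). Shares of all pairs of a gene and a group were not determined under the alternatives. Plcg1 minus Plcg2 was −1.78 without the 4 libraries and −2.22 without replicate number 2, and −1.70 to −1.25 when single libraries were left out. Some changes turned sign. With the values as deposited these were Plcb3 (−0.94), Plcb4 (−0.72), Plcd4 (−0.66), Plcg2 (−0.55), Plch1 (−0.98), Plch2 (−0.73) and Plcd4 in lung anti-PD-1 (−0.078). With the nontargeting median they were Plcb3 (−0.35), Plcb4 (−0.13), Plcd4 (−0.070), Plch1 (−0.39) and Plch2 (−0.14). Plch1 was also −0.025 with log2(signal + 10), −0.0071 with the median of all sgRNAs and −0.22 without replicate number 2, when Plcz1 was 0.29. Plcd3 was 0.21 with the median of the sgRNAs and 0.031 with the replicate block. Without the 4 libraries, Plcb1 was 0.028, Plcb3 −0.036, Plcd3 0.0078 and Plch1 −0.070. With single libraries left out, Plcb1 ranged from −0.13 to 0.017, Plcb3 from −0.091 to 0.20, Plcd3 from −0.11 to 0.090 and Plch1 from −0.054 to 0.10. The numbers were not taken to pair the libraries. The deviations of libraries with the same replicate number had correlations of −0.36 to 0.27 (median −0.013). They cannot show that the libraries are unpaired, since a batch correction by replicate number would itself bring them near 0. For libraries of different numbers the median correlation was −0.00054, and for T0 with organ libraries of the same number it was −0.080. On average, 16 of 28 libraries were closest to their own number, and how many would be without any pairing was not determined. Whether some of them share more than a number was not tested. With the replicate block, Plcg1 changed by −1.09 (limma adjusted p = 0.166), Plcg1 minus Plcg2 had an exact permutation p of 0.0534, and no count of calls moved. Rpl9 had no sgRNA left under the filter. The read depth behind these values is unknown.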
